A study of Mus musculus with 6 samples.

Results

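Transcripts of 10 genes that encode effectors of the small GTPase RAP1 were followed in lungs of tumour-bearing mice. The genes were taken from the deposited expression matrix by symbol, and all 10 were found among the 56980 mouse genes listed there. They were divided by known role into 4 adhesion effectors (Tln1, Tln2, Apbb1ip and Rassf5) and 6 junction effectors (Krit1, Afdn, Radil, Rasip1, Arap3 and Arhgap29). RNA sequencing had been done on lung tissue of NSG mice, an immunodeficient strain without mature T, B and natural killer cells. All of the mice carried a tumour grown from human MDA-MB-231 breast cancer cells in the mammary fat pad and were killed 5 weeks after injection. In the Ctrl group (n = 3) the injected cells were MDA-MB-231, and in the DPP3_KO group (n = 3) they were MDA-MB-231 cells with DPP3, the gene of dipeptidyl peptidase 3, knocked out. Only the injected human cells carry the deletion, the mouse genes measured here being unedited in both groups, and the labels do not say whether the knockout line was 1 clone or whether each replicate was a separate mouse. The p-values therefore measure the spread between these samples, which may be technical. RAP1 signalling and lung metastasis are named in the title of the study, and the comparison asks how effectors of RAP1 differ in the host lung.

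RAP1 is a small GTPase that, once loaded with GTP, binds effector proteins which change how cells hold on to matrix and to each other. In leukocytes and platelets it acts mainly through RIAM (the product of Apbb1ip), RAPL (an isoform of Rassf5) and talin, which binds the tails of integrin beta chains and switches integrins to their active form. In endothelium it acts at cell junctions, where KRIT1 and afadin (Afdn) stabilise contacts, and where Rasip1, Radil, Arhgap29 and Arap3 act to ease contractile tension.

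Values are TPM, a measure of transcript abundance that is corrected for gene length and made to sum to the same total in every library, so the sequencing depth is unknown and a gene can fall in TPM because others rose. The club cell secretoglobin Scgb1a1 stood at 71578 to 101282 TPM in Ctrl and 217097 to 287457 TPM in DPP3_KO. Each change is therefore given as deposited and again after median-of-ratios scaling, which sets a gene against the typical gene of its library; this scaling moved the median log2 change of the 15650 genes tested from -0.60 to -0.02. Marker counts here are limma calls at an adjusted p under 0.05. By that test 34.0% of all genes tested were lower as deposited and 0.888% after scaling. Of the marker lists of other cell types, 10 of 14 pan-endothelial markers were lower in DPP3_KO as deposited and 2 after scaling. Their summed level was 3132 to 3955 TPM in Ctrl and 1363 to 2317 TPM in DPP3_KO. Pan-leukocyte markers, of which 1 of 10 was lower as deposited and 0 after scaling, summed to 1122 to 3097 TPM in Ctrl and 414 to 2327 TPM in DPP3_KO. The 11 neutrophil markers differed most between libraries of the same group, with 53410 TPM in Ctrl replicate 3 and 35170 TPM in DPP3_KO replicate 2, against 4092 and 7245 TPM in the other Ctrl libraries and 1685 and 15410 TPM in the other DPP3_KO libraries. Alveolar macrophage markers were lower for 10 of 13, with a median log2 change of -2.22 and sums of 2386 to 4232 TPM in Ctrl and 322 to 2087 TPM in DPP3_KO, and 7 of them were also called after scaling. Alveolar type 1 markers were lower for 8 of 9 as deposited, with a median of -1.95, and for 2 of 9 after scaling. Their sums were 3651 to 6015 TPM in Ctrl and 1131 to 2592 TPM in DPP3_KO. The part of these cell types in the effectors' values was not tested. No marker of these lists was at 0 in any library, whereas 7 of 9 lymphocyte markers were at 0 in at least 1. In whole lung, fewer cells of a type and less RNA per cell cannot be told apart.

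The level of all 10 effectors lay above the filter of a mean of 1 TPM. Arap3 was the most abundant in Ctrl lungs at 206 ± 12.6 TPM (SD, n = 3), above Tln1 at 133 ± 7.91 TPM without overlap of their ranges. Afdn (112 TPM), Arhgap29 (76.5 TPM), Rasip1 (71.8 TPM), Rassf5 (41.1 TPM), Krit1 (29.3 TPM) and Apbb1ip (27.0 TPM) followed, each overlapping its neighbour in that order, and Tln1 overlapped Afdn. Radil (9.68 TPM) and Tln2 (5.02 TPM) were the lowest, apart from Apbb1ip and overlapping each other. In DPP3_KO lungs Arap3 was again first at 92.5 ± 13.2 TPM, Tln1 and Afdn exchanged places, as did Rasip1 and Arhgap29, and those pairs overlapped.

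Promoter sequence is shown for 4 effectors, so that Apbb1ip and Rassf5, whose groups overlapped as deposited, can be read beside Tln1 and Rasip1, whose groups were apart. Of the 10 genes 8 had an entry in the RefSeq promoter table (build GRCm38.p6, an earlier build than that of the expression matrix), and Tln2 and Arap3 had none. The 250 bases before the annotated start are given 5′ to 3′ on the gene's strand, with capitals on GGAAGT, a core that ETS-family factors bind, and GGGCGG, the GC box of SP1, both searched on either strand. These motifs were chosen after the windows had been seen. They occupy chr4:43562584-43562833 (minus strand) for Tln1, chr2:22774077-22774326 (plus) for Apbb1ip, chr1:131200186-131200435 (minus) for Rassf5 and chr7:45627287-45627536 (plus) for Rasip1.
Tln1: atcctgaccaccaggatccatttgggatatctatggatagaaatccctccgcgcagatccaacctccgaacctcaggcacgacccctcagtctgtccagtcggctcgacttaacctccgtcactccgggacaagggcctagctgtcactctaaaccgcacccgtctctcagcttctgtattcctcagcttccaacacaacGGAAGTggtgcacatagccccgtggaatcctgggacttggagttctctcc
Apbb1ip: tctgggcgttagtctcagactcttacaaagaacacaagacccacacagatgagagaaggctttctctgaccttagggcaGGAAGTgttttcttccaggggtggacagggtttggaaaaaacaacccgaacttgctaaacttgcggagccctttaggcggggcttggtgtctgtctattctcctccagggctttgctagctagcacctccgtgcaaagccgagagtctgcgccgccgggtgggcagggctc
Rassf5: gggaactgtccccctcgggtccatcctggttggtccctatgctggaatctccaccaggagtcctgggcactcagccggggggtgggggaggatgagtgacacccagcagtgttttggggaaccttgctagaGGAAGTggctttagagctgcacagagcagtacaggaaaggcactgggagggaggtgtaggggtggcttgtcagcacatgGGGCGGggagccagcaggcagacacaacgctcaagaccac
Rasip1: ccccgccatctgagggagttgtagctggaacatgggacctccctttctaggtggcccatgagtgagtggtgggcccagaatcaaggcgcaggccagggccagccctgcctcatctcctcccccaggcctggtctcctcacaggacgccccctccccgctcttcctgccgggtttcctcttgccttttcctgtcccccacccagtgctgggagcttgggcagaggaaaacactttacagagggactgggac
The ETS core was found once in each of the 3 adhesion windows, 50 bases before the start in Tln1, 171 in Apbb1ip and 119 in Rassf5, and Rassf5 also held 1 GC box 40 bases before it. Neither motif was found in the Rasip1 window. Of the members not shown, the ETS core was found in 1 of the windows of Krit1 and in none of Afdn, Radil and Arhgap29. The GC box was found 4 times in Afdn, 5 times in 1 of the windows of Radil, and 4 and 3 times in the windows of Arhgap29, and in none of Krit1, so the lack of both motifs in Rasip1 does not stand for the junction effectors. Over all 32851 mouse promoter windows of the same length, 19.7% held the ETS core and 32.7% the GC box. The last 30 bases of the full table window, which lie past the start, were found in a GENCODE M21 transcript of the same gene for Tln1, Apbb1ip and Rasip1, but in 0 of 5 for Rassf5, so the Rassf5 start was not matched to a transcript there.

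Of the 10 effectors 8 were lower in DPP3_KO lungs on the deposited scale, namely both talins and all 6 junction effectors, and 0 were higher. The background is high: of the 15650 genes tested, 34.0% were called lower and 1.38% higher by the same test (limma on log2(TPM + 1), Benjamini-Hochberg adjusted p under 0.05). At an unadjusted p under 0.05, 8 members were lower as deposited, where 48.0% of all genes were. The same 8 of 10 had every DPP3_KO value below every Ctrl value, which 51.1% of all genes tested also did. After median-of-ratios scaling limma called 0 of 10 in either direction, against 0.888% of all genes lower and 1.94% higher; a count of 0 does not show that the effectors were unchanged. At an unadjusted p under 0.05, 5 members were lower after scaling (Tln1, Tln2, Radil, Arap3 and Arhgap29), where 11.5% of all genes were, and these same 5 kept every DPP3_KO value below every Ctrl value, as did 15.2% of all genes. The number of members called as deposited also changed with the library left out. Without Ctrl replicate 1 or without Ctrl replicate 2 limma called 0 members, and without DPP3_KO replicate 3 it called 3. Calls over all 15650 genes fell with them, from 5321 lower to 18, 71 and 1596 in those 3 fits, while the change of Tln1 stayed between -1.58 and -1.32 over all 6 libraries left out. With any other library left out 6 or 7 members were called. At an unadjusted p under 0.05, 8 or 9 members were lower as deposited whichever library was left out. The share of all genes was 48.0% with every library kept and was not counted for these fits. After scaling, 2 to 5 members were lower at that p with 1 library left out, and the share was again not counted. With every library kept and the trend with gene length also removed, the scaled count was 2.

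**Figure D1:**
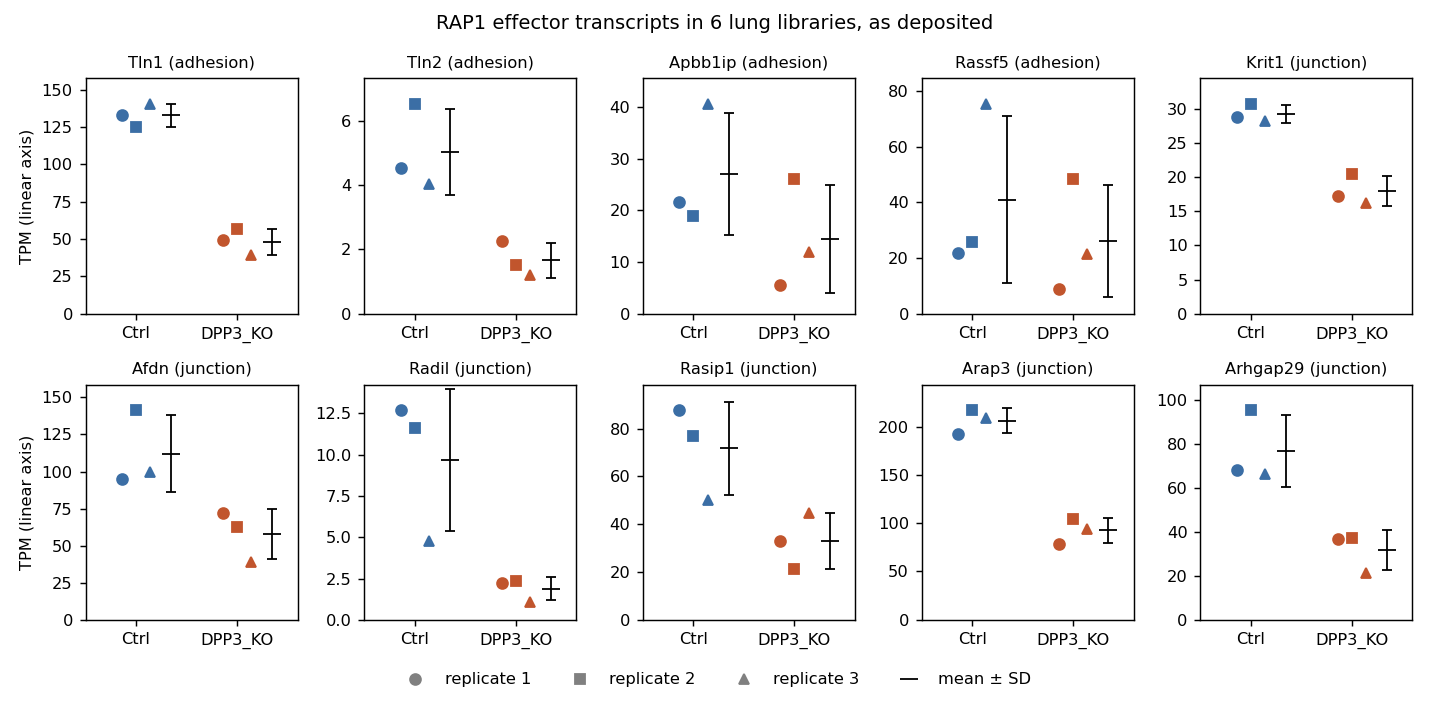
TPM of each RAP1 effector (linear vertical axes starting at 0) in the 3 Ctrl and 3 DPP3_KO lung libraries; points are libraries, shaped by replicate number, and the bar beside them is the mean ± SD. The groups are apart for both talins and the 6 junction effectors and overlap for Apbb1ip and Rassf5, whose highest values are in Ctrl replicate 3 and DPP3_KO replicate 2.

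Among the adhesion effectors, the talin genes were lower in every DPP3_KO library. Tln1 (ENSMUSG00000028465), the talin of nearly all tissues, stood at 133, 125 and 141 TPM in Ctrl replicates 1 to 3 and at 49.1, 56.5 and 39.1 TPM in DPP3_KO replicates 1 to 3. The libraries within each group lay close together, 1.13-fold apart at most in Ctrl and 1.45-fold in DPP3_KO. The log2 change was -1.46 (95% interval -1.89 to -1.02, limma adjusted p = 0.0145), more negative than that of all but 5.48% of the genes tested. After median-of-ratios scaling the same libraries read 106, 92.9 and 119 against 60.9, 63.5 and 56.0, still without overlap. That scaled change was -0.80 (95% interval -1.19 to -0.42, limma adjusted p = 0.0543). After a further correction for gene length, by removing its trend from each library, it was -0.51, and Tln1 is among the longer transcripts at 8393 bases. In the other fits with median-of-ratios scaling the limma adjusted p of Tln1 lay between 0.0896 and 0.163. Over all alternatives run, those on deposited values included, the lowest was 0.00647.

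Tln2 (ENSMUSG00000052698), the second talin, best known from heart, skeletal muscle and brain, was scarce in these lungs. It stood at 4.52, 6.53 and 4.02 TPM in Ctrl and at 2.27, 1.51 and 1.21 TPM in DPP3_KO, so the groups did not overlap. The log2 change was -1.18 (95% interval -1.80 to -0.55, limma adjusted p = 0.0210) as deposited and -0.69 after scaling (limma adjusted p = 0.144). With the length trend also removed it was -0.40. Cardiac muscle markers moved the other way in these libraries. Of 8, 6 were higher in DPP3_KO as deposited and 6 after scaling, beside 1.38% and 1.94% of all genes tested. They summed to 488 to 991 TPM in Ctrl and 1859 to 2088 TPM in DPP3_KO, and their part in the Tln2 values was not tested. Tln1 exceeded Tln2 19.1- to 37.4-fold in TPM within a library. The within-library log2 ratio of Tln1 to Tln2 was taken with 1 TPM added to each gene. It was 4.49 ± 0.39 in Ctrl and 4.21 ± 0.29 in DPP3_KO (SD, n = 3 each). The groups overlapped (exact permutation test, two-sided p = 0.4, where 3 against 3 cannot go below 0.1). With 0.1 TPM added instead, the change of this ratio was 0.079 rather than -0.28, so its direction depended on the amount added.

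Apbb1ip and Rassf5, the effectors best known from leukocytes, did not pass the test and varied mainly between libraries of the same group. Apbb1ip (ENSMUSG00000026786), whose product RIAM brings talin to the membrane, stood at 21.6, 18.9 and 40.7 TPM in Ctrl and at 5.58, 26.0 and 11.98 TPM in DPP3_KO. Rassf5 (ENSMUSG00000026430), which encodes RAPL and the tumour suppressor NORE1, stood at 21.8, 25.8 and 75.6 TPM in Ctrl and at 8.75, 48.3 and 21.4 TPM in DPP3_KO. For both genes the highest library of each group was Ctrl replicate 3 and DPP3_KO replicate 2, and the groups overlapped. Their log2 changes were -1.01 (95% interval -2.23 to 0.22, limma adjusted p = 0.159) and -0.71 (95% interval -2.26 to 0.85, limma adjusted p = 0.410). The intervals are wide enough to hold the change of Tln1 as well as no change. Over all alternatives run, on deposited or rescaled values, the limma adjusted p of Apbb1ip lay between 0.0448 and 0.994. Without DPP3_KO replicate 2 Apbb1ip was called lower as deposited, at -1.52 (limma adjusted p = 0.0448), whereas it was -0.50 without DPP3_KO replicate 1 and -0.68 without Ctrl replicate 3. Rassf5 was -1.28, -0.11 and -0.16 without those same libraries and was not called in any alternative, so the size of both changes rests on single libraries.

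Set against leukocyte markers of the same library, these wide differences were much smaller. The difference of log2(TPM + 1) between Rassf5 and the mean of 10 pan-leukocyte markers was -1.88, -1.75 and -1.57 in Ctrl and -1.55, -1.65 and -1.80 in DPP3_KO, a range of 0.33 over 6 libraries in which its TPM differed up to 8.63-fold. For Apbb1ip the same difference was -1.89, -2.18 and -2.45 in Ctrl and -2.11, -2.52 and -2.59 in DPP3_KO, a range of 0.70 for a TPM that differed up to 7.29-fold. Among the 10 effectors these were the smallest ranges on that scale; the other 8 ranged over 2.03 to 3.04. The talin genes were among those 8, with ranges of 2.24 for Tln1 and 2.83 for Tln2. Ptprc, the pan-leukocyte marker CD45, was likewise highest in Ctrl replicate 3 (208 TPM) and DPP3_KO replicate 2 (110 TPM), and so was Fyb, which encodes an integrin adaptor of leukocytes and was picked after its values were seen (195 and 146 TPM). The part of leukocyte or neutrophil content in these values was not tested.

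**Figure D2:**
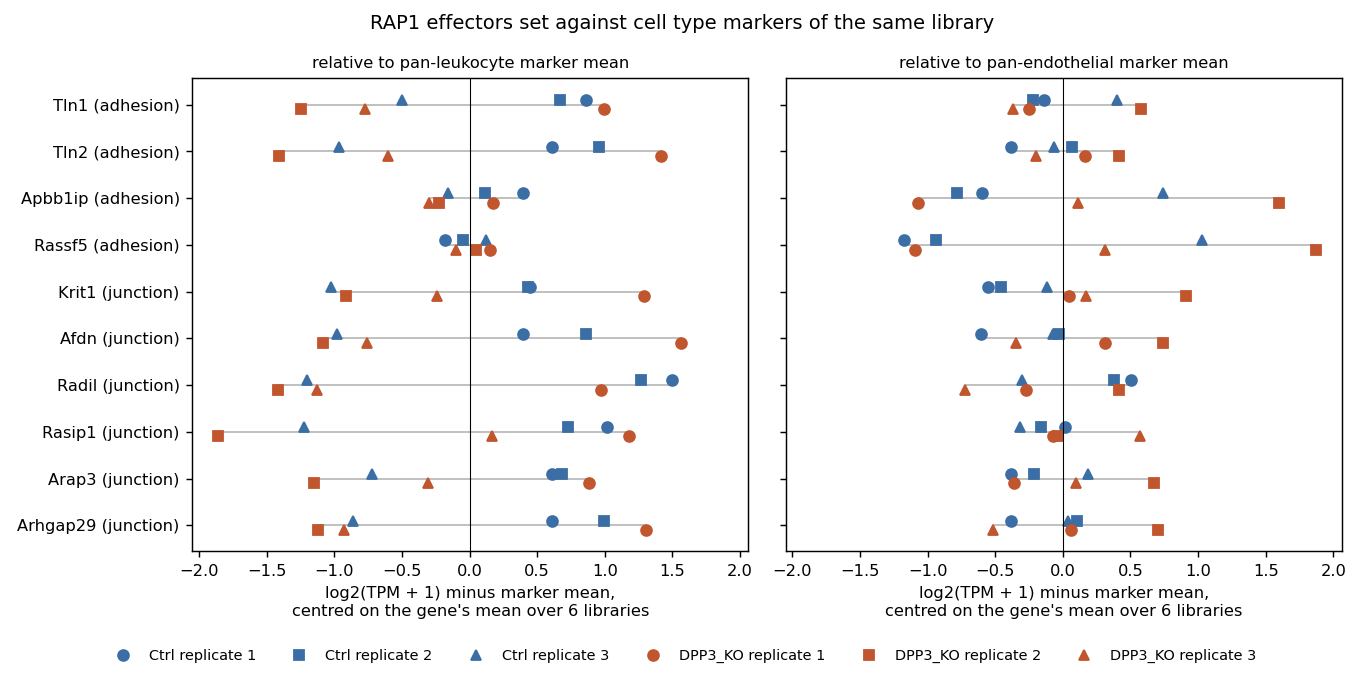
Difference of log2(TPM + 1) between each RAP1 effector (rows) and the mean of 10 pan-leukocyte markers (left) or 14 pan-endothelial markers (right) of the same library, centred on the gene's mean over 6 libraries (log2 axis); blue points are Ctrl and orange points DPP3_KO libraries, shaped by replicate number. Apbb1ip and Rassf5 span 0.70 and 0.33 on the left and 2.67 and 3.05 on the right, while the other effectors span 2.03 to 3.04 on the left and 0.80 to 1.46 on the right.

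All 6 junction effectors were lower in DPP3_KO as deposited, and they differed in how far. Radil (ENSMUSG00000029576), a RAP1-binding partner of Rasip1, showed the largest change of the 10. It stood at 12.7, 11.6 and 4.74 TPM in Ctrl and at 2.24, 2.37 and 1.07 TPM in DPP3_KO, so Ctrl replicate 3 lay nearer to the DPP3_KO libraries than to its own group. The log2 change was -1.82 (95% interval -2.72 to -0.91, limma adjusted p = 0.0189), more negative than that of all but 2.33% of the genes tested. After scaling it was -1.31 (95% interval -2.12 to -0.50, limma adjusted p = 0.0917), the largest scaled change of the 10. In the other fits with median-of-ratios scaling the limma adjusted p of Radil lay between 0.0712 and 0.315. Over all alternatives run, those on deposited values included, the lowest was 0.00721.

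Arhgap29 and Arap3 encode GTPase-activating proteins, and both held non-overlapping groups under either scaling. Arhgap29 (ENSMUSG00000039831), which Rasip1 recruits, stood at 67.8, 95.3 and 66.3 TPM in Ctrl and at 36.9, 37.2 and 21.1 TPM in DPP3_KO, a log2 change of -1.27 (limma adjusted p = 0.0193) as deposited and -0.62 after scaling. Arap3 (ENSMUSG00000024451), a phosphoinositide-dependent protein that RAP1 activates, stood at 193, 217 and 209 TPM in Ctrl and at 78.5, 105 and 94.5 TPM in DPP3_KO. Its log2 change was -1.16 as deposited (limma adjusted p = 0.0145) and -0.50 after scaling. Neither gene was called after scaling (limma adjusted p = 0.150 for Arhgap29 and 0.169 for Arap3). With the length trend also removed, the changes were -0.37 for Arhgap29 and -0.27 for Arap3. Like Tln1, Arap3 varied little within a group, by 1.13-fold at most in Ctrl and 1.33-fold in DPP3_KO.

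Rasip1 and Afdn were lower as deposited, but their groups overlapped once scaled. Rasip1 (ENSMUSG00000044562), an endothelial protein needed for vessel lumens, stood at 87.9, 77.1 and 50.3 TPM in Ctrl and at 32.8, 21.4 and 44.8 TPM in DPP3_KO, a log2 change of -1.12 (95% interval -1.87 to -0.37, limma adjusted p = 0.0346). Scaled, it read 70.1, 57.4 and 42.5 against 40.7, 24.0 and 64.2, so that DPP3_KO replicate 3 lay among the Ctrl libraries, and the change was -0.47 (95% interval -1.35 to 0.41). Its order of libraries differed from that of its partners: DPP3_KO replicate 3 was the highest of its group for Rasip1 and the lowest for Arhgap29 and Radil. Afdn (ENSMUSG00000068036), which encodes the nectin-binding junction protein afadin, stood at 94.8, 142 and 99.7 TPM in Ctrl and at 72.2, 62.6 and 39.2 TPM in DPP3_KO. The change was -0.96 (limma adjusted p = 0.0352) as deposited, -0.30 after scaling and -0.06 with the length trend also removed.

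Krit1 (ENSMUSG00000000600), a gene mutated in familial cerebral cavernous malformation, followed the typical gene. It stood at 28.8, 30.8 and 28.3 TPM in Ctrl and at 17.2, 20.5 and 16.3 TPM in DPP3_KO, a log2 change of -0.68 (limma adjusted p = 0.0249) beside the median of -0.60 over all genes tested. Scaled, the 6 libraries read between 21.4 and 23.9 with overlapping groups. The scaled change was -0.04 with a 95% interval of -0.36 to 0.27, the narrowest interval of the 10.

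**Figure D3:**
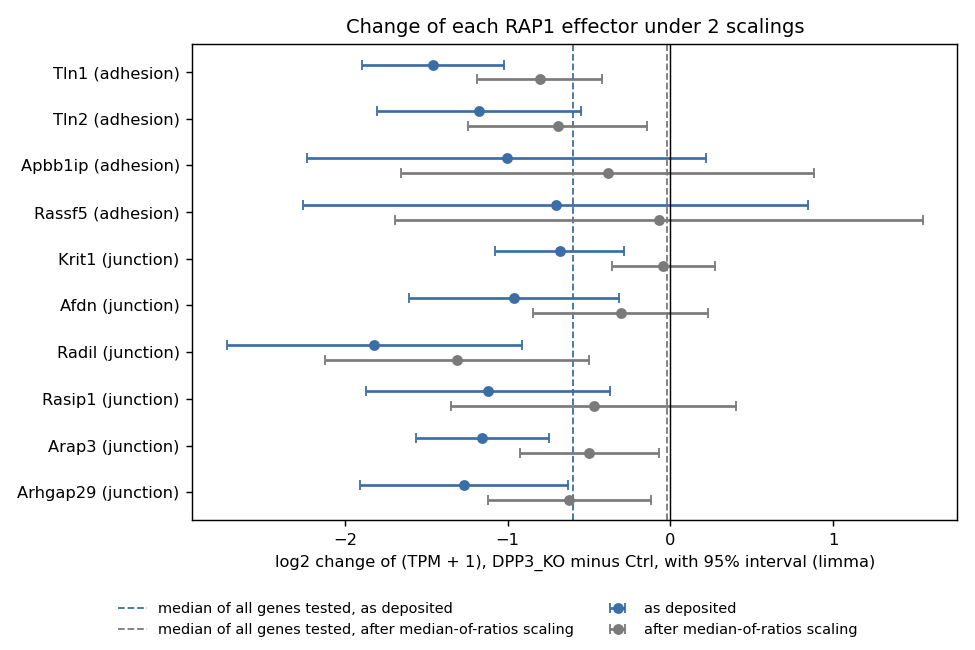
Log2 change of (TPM + 1), DPP3_KO minus Ctrl, for each RAP1 effector with its 95% limma interval, as deposited (blue) and after median-of-ratios scaling (grey); dashed lines are the medians of all 15650 genes tested. As deposited 8 intervals lie below 0, and after scaling 5 do, with Radil farthest from 0 at -1.31 and Krit1 nearest at -0.04.

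Compared as classes, adhesion and junction effectors kept no fixed order of their medians. The median log2 change was -1.09 over the 4 adhesion effectors and -1.14 over the 6 junction effectors as deposited, beside -0.60 over all genes tested. After median-of-ratios scaling the medians were -0.54 and -0.48, beside -0.02, and with the length trend also removed -0.39 and -0.32. With a pseudocount of 5 the adhesion median was -0.69 and the junction median -1.04. After scaling they were -0.36 and -0.55 without Ctrl replicate 3, -0.34 and -0.48 without DPP3_KO replicate 1, and -0.72 and -0.40 without DPP3_KO replicate 2, so single libraries turned their order. Within a library, the mean log2(TPM + 1) of the adhesion effectors minus that of the junction effectors was -1.27, -1.34 and -0.31 in Ctrl and -1.45, -0.38 and -0.84 in DPP3_KO. This difference, which does not depend on scaling beyond the pseudocount, overlapped between the groups and was nearest to 0 in Ctrl replicate 3 and DPP3_KO replicate 2, the libraries with the most neutrophil marker TPM. No test was made over the classes, whose members were chosen with results known. Inside the adhesion class the groups were apart for the talins and overlapped for Apbb1ip and Rassf5.

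**Figure D4:**
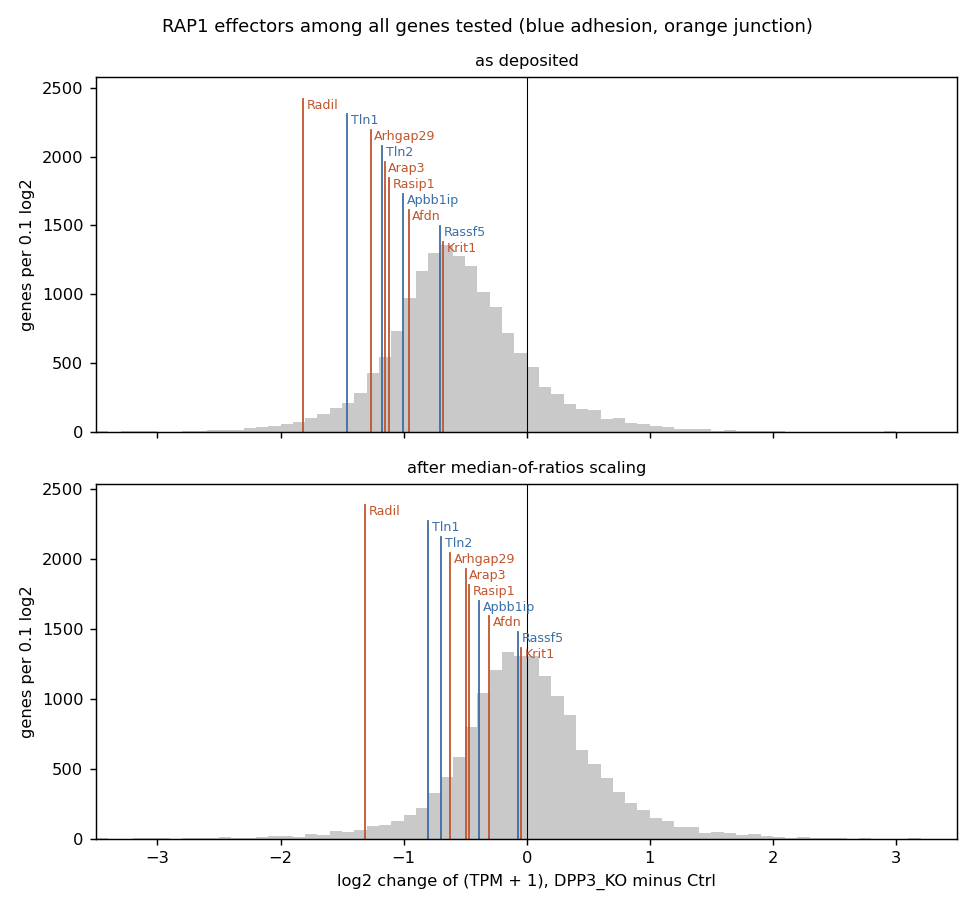
Number of genes tested per 0.1 log2 (grey bars, linear axis) by log2 change of (TPM + 1), DPP3_KO minus Ctrl, as deposited (top) and after median-of-ratios scaling (bottom), with adhesion effectors as blue and junction effectors as orange lines; line height only separates the labels. Krit1 and Rassf5 sit near the middle of all genes, at -0.68 and -0.71 as deposited, and Radil and Tln1 lie farthest to the left at -1.82 and -1.46.

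Set against endothelial markers of the same library, the junction effectors overlapped between the groups, except Krit1. On this scale the DPP3_KO mean was above the Ctrl mean for 5 of them, by 0.16 (Arhgap29) to 0.75 (Krit1), and below it for Radil (a difference of -0.39). The difference of log2(TPM + 1) between Rasip1 and the mean of 14 pan-endothelial markers was -1.02, -1.20 and -1.35 in Ctrl and -1.11, -1.07 and -0.47 in DPP3_KO. The corresponding values of Arap3 were 0.11, 0.28 and 0.68 in Ctrl and 0.13, 1.17 and 0.59 in DPP3_KO. Of the 10 effectors 9 overlapped between groups on this measure, and Krit1 lay higher in every DPP3_KO library (-2.00, -1.13 and -1.87) than in any Ctrl library (-2.59, -2.50 and -2.16). Cdh5, the endothelial cadherin whose junctions these effectors serve, changed by -2.55 as deposited and -1.89 after scaling, and the median of the 14 markers was -1.65 and -0.99, farther from 0 than either class of effectors. The part of endothelial content in the fall of the junction effectors was not tested.

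Genes acting around these effectors in the RAP1 pathway were also lower in part as deposited, and 2 of them, Rapgef4 and Cdh5, were called after scaling. Their counts stand beside the 34.0% of all genes tested that were called lower as deposited, and those of the RAP GTPases and integrin activation partners lie near that share. Of 11 exchange factors, which load RAP1 with GTP, 7 were lower and 4 did not pass; Rapgef4 (EPAC2) changed by -2.22, Rasgrp3 by -2.16 and Rapgef5 by -1.51, and Rapgef4 alone of the list was called after scaling, at -1.61 (limma adjusted p = 0.0386). Of 7 proteins that inactivate RAP1, 4 were lower and 0 after scaling, led by Sipa1l1 (-1.29), Sipa1l3 (-1.19) and Sipa1l2 (-0.97). Among 5 RAP GTPases Rap2a (-0.84) and Rap2c (-0.99) were lower and the others did not pass, Rap1b among them at -0.87 (limma adjusted p = 0.104).

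Of 23 tested integrin activation partners of 25 listed, 10 were lower and 13 did not pass. They included Sav1 (-0.92), an adaptor of the MST kinases that RAPL binds, the integrin beta 1 gene Itgb1 (-1.10) and Vcl, whose product vinculin binds talin (-1.85). After scaling 0 of the 23 passed. Of 21 partners of the junction effectors 15 were lower, with Cdh5 (-2.55), the alpha-catenin gene Ctnna1 (-1.33) and the p120-catenin gene Ctnnd1 (-1.42) leading, and Cdh5 was the 1 that passed after scaling (-1.89, limma adjusted p = 0.0331). The scaled medians of these 5 lists lay between -0.39 (exchange factors) and -0.20 (RAP GTPases), beside -0.54 and -0.48 for the adhesion and junction effectors.

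The genes whose pattern over the 6 scaled libraries was most like that of an effector were found by Pearson's r of log2(TPM + 1) over 13380 other named genes, as a description. Tln1 was nearest to Slc16a9, Ip6k1 and Mink1 (r = 0.995 for each). Apbb1ip was nearest to Mapkapk3 and Lair1 (r = 0.997 and 0.995), then Ccnl1 (0.994). For Rasip1 the nearest were Morrbid, Map3k10 and Rnf215 (0.997, 0.996 and 0.994), for Radil Rnf43, Acsl5 and Rbpjl (0.998, 0.995 and 0.994), for Arhgap29 Dstyk, Rai14 and Vps39 (0.997, 0.996 and 0.994) and for Krit1 Cd300a, Heatr1 and Nfatc1 (0.995, 0.992 and 0.991). With 6 libraries in 2 groups, the p of such an r is not given. Each r is the top of a search over 13380 genes with 6 points, so a value near 1 says little. Krit1 reached 0.995 though its scaled values read only between 21.4 and 23.9. No other effector was among the 3 nearest genes of these 6, and the neighbours of Tln2, Rassf5, Afdn and Arap3 were not sought.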

How the data were processed

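For 6 lung libraries the authors deposited TPM, with gene lengths, for 56980 genes. The submitters' processing notes list HISAT2, StringTie, RSEM and the build GRCm39, with neither role nor version. How human reads were handled, the annotation release and the strand setting are not given in those sources. Groups came from the titles; the third Ctrl title differs by a digit in the cell line's name, which was taken as a slip. TPM keeps no depth, so no counting interval is given. On the log2(TPM + 1) scale, the 15650 genes averaging 1 TPM or more were fitted with limma 3.58.1 in R 4.3.3 (intensity trend, two-sided, Benjamini-Hochberg over all genes tested, threshold 0.05). Median-of-ratios factors used tested genes above 0 in every library. Alternatives were other pseudocounts (0.1, 5), filters, scalings, limma options, a replicate block, a threshold of 0.1 and each library left out. Members, gene lists and tests were chosen with earlier results of these data known. Named pathway genes were the 3 with the smallest p in each list; Fyb was named after its values were seen. Promoter windows came from RefSeq (GRCm38.p6). The fit was tested on simulated data with known changes, and after scaling it recovered none of the smallest ones. Whether the scaled fit would likewise miss changes of the effectors in these libraries was not tested. Tln1, at -0.80 after median-of-ratios scaling, had a limma adjusted p of 0.0543. With quantile normalization Tln1 was at -0.90 and was called lower (limma adjusted p = 0.0360).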

Additional observations from a re-analysis of the deposited data

How the results depend on the processing

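As deposited, 8 effectors were lower, and this count fell to 5 with no filter on low values (3093 genes lower in all), 2 with TPM rescaled without Scgb1a1 (423), 1 with quantile normalization (141; 327 higher), and 0 with median-of-ratios scaling (139), alone, with gene length corrected too (91; 186 higher), or with a replicate block (18; 63 higher). At a threshold of 0.1, 353 genes were higher. The median change of the junction effectors was -0.83 without Scgb1a1, -0.58 with quantile normalization, -0.48 after scaling, with or without the block, and -0.32 with the length trend removed. With 1 library left out as deposited, 0 to 7 effectors and 18 to 4993 genes were lower, 1 to 146 genes were higher, and the junction median lay between -1.25 and -1.08. With 1 library left out after scaling, 0 effectors were lower in each fit; the genes lower were 15, 55 and 25 without Ctrl replicates 1 to 3 and 167, 6 and 15 without DPP3_KO replicates 1 to 3, those higher were 18, 41, 47, 173, 18 and 48, and the junction medians were -0.47, -0.48, -0.55, -0.48, -0.40 and -0.52. The median of the adhesion effectors was -1.27 and -0.69 with pseudocounts of 0.1 and 5, -1.40 to -0.92 with 1 library left out as deposited and -0.72 to -0.34 with 1 left out after scaling. The Tln1 to Tln2 ratio change was -0.28 on log2(TPM + 1). It became 0.079 with a pseudocount of 0.1 and -0.80 with a pseudocount of 5 (exact permutation p = 0.1, the smallest possible). With 1 library left out on log2(TPM + 1) it lay between -0.50 and -0.12. Rassf5 turned to 0.027 with the length trend removed, and after scaling to 0.52 without Ctrl replicate 3 and 0.54 without DPP3_KO replicate 1, where Apbb1ip was 0.14; neither gene was called in these fits. No effector was called higher in any of the 26 alternatives. Deviations of same-numbered replicates from their group means had correlations of 0.27, -0.21 and 0.15. So few libraries cannot show whether replicates were paired, and the labels name no pairing. With the replicate block 7 effectors were lower as deposited, Rasip1 being lost (limma adjusted p = 0.0604). The cause of these shifts was not tested. Without depth, low genes such as Tln2 and Radil have unknown counting error.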
